A study of Canis lupus familiaris with 4 samples.

Results

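The Jumonji histone demethylases are enzymes that remove methyl groups from histone tails, and 10 of their genes were examined in MDCK cells, a canine kidney epithelial line. The genes were *KDM2A*, *KDM2B*, *KDM3A*, *KDM4A*, *KDM4B*, *KDM4C*, *KDM5A*, *KDM5B*, *KDM6B* and *JMJD6*, and they were taken by gene symbol from the annotation of the array. Each probe set that carried 1 of these symbols alone was included. This gave 20 probe sets, a probe set being a group of probes read together as 1 value, out of 42860 that represent canine sequences and 29254 with a single gene symbol. All 10 genes had at least 1 probe set.

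Gene expression had been measured with Affymetrix canine arrays in 4 conditions, with 1 array each. HIF2α-KD cells, which the labels call *HIF2A* knockdown, and control cells, which the labels call wild type, were each grown for 24 h in normoxia (16% O2) and then for 24 h in hypoxia (1% O2) or in normoxia. HIF2α-KD lines were made with a retrovirus that carries an shRNA and selected with puromycin, and the control cells of the study carried an empty shRNA cassette. The study names a single HIF2α-KD line for its normoxic array work, and the labels do not give the line. With 1 array per condition, 2 arrays compared directly give a value with neither an error nor a test, and in bulk RNA fewer cells that express a gene and less of its mRNA per cell cannot be told apart.

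These enzymes share the JmjC domain, which binds iron and uses molecular oxygen and 2-oxoglutarate to oxidise a methyl group until it falls off as formaldehyde. They belong to the same superfamily as the prolyl hydroxylases that mark HIFα subunits for destruction, and their catalysis depends on the oxygen supply. In human cells *KDM3A*, *KDM4B* and *KDM4C* are known targets of HIF, and hypoxia is known to raise their mRNA there while it limits the activity of several members of the family.

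The target gene of the knockdown, *EPAS1*, which encodes HIF2α, had an intensity of 32.6 on the HIF2α-KD array and 116 on the control array in hypoxia. In normoxia it was 47.9 on the array labelled HIF2α-KD and 44.6 on the control array. The label of the normoxic knockdown array is thus not borne out by *EPAS1* on these arrays, and each direction drawn from that array rests on its label. The study reported lower *EPAS1* mRNA in its HIF2α-KD lines by RT-qPCR, a measurement not made on these arrays. The other probe set of *EPAS1* was at background on all 4 arrays, between 1.00 and 6.39. The background level came from 63 reporter probe sets, controls for no canine gene, with a 95th percentile of 20.6 to 27.2 depending on the array. Of 8 kidney tubule epithelial markers, 7 were above that level on each array, with *PAX8* below it, and their summed intensity was 37079 and 33856 on the arrays labelled HIF2α-KD in hypoxia and normoxia, against 38720 and 37466 on the control arrays. Among markers of other cells, 0 or 1 of 6 fibroblast genes, 1 of 4 endothelial genes and 3 of 4 leukocyte genes were above it, with summed intensities of at most 73.1, 143 and 134. Their part in the results was not tested.

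All differences are of log2(intensity + 16), a scale on which dim probe sets appear to differ by less than they do. A probe set was kept for testing where at least 1 array reached the table's median of 28.64, which left 23493 probe sets. Of the 20 probe sets of Jumonji genes, 13 passed, for 7 of the 10 genes. Each of these 13 was above 28.64 on every array, with 40.7 as the lowest value, so none passed through a single condition. Over all 4 arrays, limma was fitted to the 23493 probe sets with 1 additive term for oxygen and another for cell line, which leaves 1 residual degree of freedom. The oxygen term is thus the mean of the hypoxia differences in both cell lines. The line term is the mean of the knockdown differences at both oxygen levels. A term can therefore lie away from 0 where only 1 of its pairs differs, or near 0 where the pairs differ in opposite directions. The arrays were not replicates of one culture, and the spread in the fit is what the additive terms leave over. Each SE rests on a variance that limma draws toward that of all probe sets. It is therefore not the spread of that probe set's own 4 arrays.

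**Figure D1:**
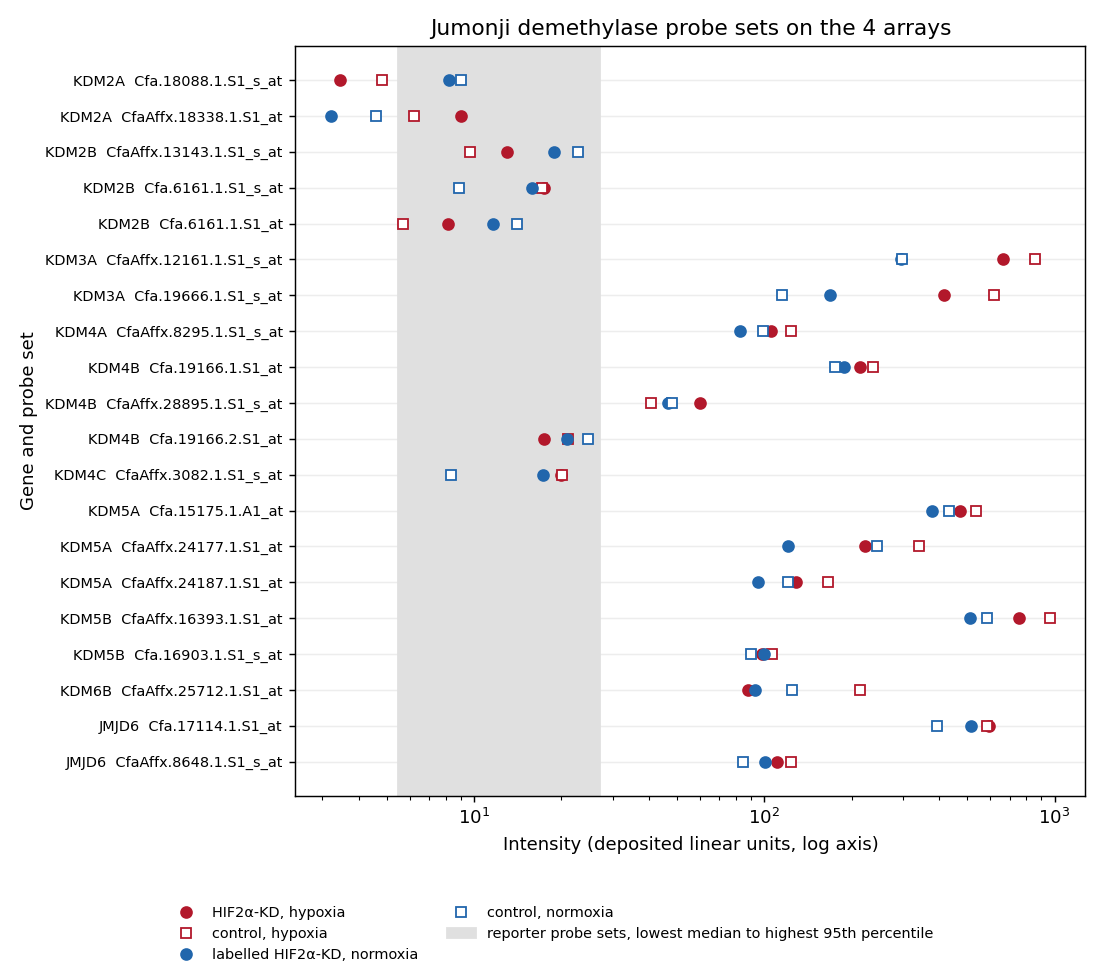
Intensity of each of the 20 probe sets of Jumonji genes on each array, on a log axis. Each point is 1 array, without replicates or error bars, red in hypoxia and blue in normoxia, with filled circles for HIF2α-KD and open squares for control. The grey band spans reporter background, 5.48 (lowest array median) to 27.2 (highest 95th percentile), and *KDM2A*, *KDM2B*, *KDM4C* and 1 probe set of *KDM4B* lie in or below it, whereas the hypoxic points of *KDM3A* lie to the right of its normoxic points.

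*KDM3A* was the only gene among the 10 that limma called for oxygen, and it rose in hypoxia at both of its probe sets. The enzyme removes the mono- and dimethyl marks from lysine H3K9, marks of silenced chromatin. At its brighter probe set, CfaAffx.12161.1.S1_s_at, the intensity was 664 in hypoxia against 296 in normoxia on the arrays labelled HIF2α-KD, and 860 in hypoxia against 299 in normoxia on the control arrays. At the other, Cfa.19666.1.S1_s_at, it was 417 in hypoxia against 169 in normoxia on the arrays labelled HIF2α-KD, and 617 against 115 on the control arrays. Both hypoxic values lay above both normoxic values at each probe set. Names that end in _s_at mark probe sets whose probes match more than 1 transcript, and signal from other transcripts was not tested. The log2 differences were 1.12 in HIF2α-KD and 1.48 in control cells at the brighter probe set, and 1.23 and 2.27 at the other.

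The oxygen term of *KDM3A* was 1.30 ± 0.16 (SE, 4 arrays; limma, adjusted p = 0.0107) at the brighter probe set and 1.75 ± 0.24 (SE; limma, adjusted p = 0.0147) at the other. By size these terms ranked 213 and 74 from the top of 23493 probe sets, within the highest 0.907% and 0.315%. Limma called 3.08% of all probe sets higher in hypoxia and 0.864% lower, against 2 of the 13 Jumonji probe sets higher and 0 lower. With quantile normalization the calls split into 659 higher and 339 lower, against 724 and 203 here. In each single pair, both *KDM3A* probe sets were the only ones of the 13 at least 2-fold higher, where 1.48% of all probe sets were in HIF2α-KD cells, 3.46% in control cells and 0.945% in both. None of the 13 was 2-fold lower, where 0.626% of all probe sets were in HIF2α-KD cells and 0.681% in control cells. Without the filter on dim probe sets, which raises the number tested to 42860, neither was called (adjusted p = 0.0747 and 0.118).

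In hypoxia *KDM3A* was 664 on the HIF2α-KD array against 860 on the control array at the brighter probe set, and 417 against 617 at the other. The log2 differences were -0.37 and -0.55. For the array labelled HIF2α-KD in normoxia they were -0.01 and 0.50, the first of which turned to 0.058 with quantile and 0.045 with cyclic loess normalization. The line term was -0.19 ± 0.16 (SE; limma, adjusted p = 0.786) at the brighter and -0.02 ± 0.24 (SE; limma, adjusted p = 0.987) at the other, the sign of which turned under quantile and cyclic loess normalization. Whether the hypoxia difference is larger in control cells could not be tested, since a model with that term leaves no residual degree of freedom.

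The *KDM4* genes encode demethylases of the trimethyl marks of H3K9 and H3K36. *KDM4A*, with 1 probe set, had an intensity of 105 in hypoxia against 82.5 in normoxia on the arrays labelled HIF2α-KD, and 123 against 98.8 on the control arrays. Both hypoxic values lay above both normoxic ones, but by little, and the oxygen term was 0.29 ± 0.14 (SE; limma, adjusted p = 0.281). *KDM4B* differed among its probe sets. At its brightest, Cfa.19166.1.S1_at, it was 214 in hypoxia against 189 in normoxia on the arrays labelled HIF2α-KD, and 238 against 175 on the control arrays, with an oxygen term of 0.29 ± 0.15 (SE; limma, adjusted p = 0.307). At CfaAffx.28895.1.S1_s_at the values were 59.9 against 46.5 on the arrays labelled HIF2α-KD, and 40.7 against 47.9 on the control arrays. The direction thus differed between the cell lines, and the oxygen term was 0.05 ± 0.18 (SE; limma, adjusted p = 0.895). The third *KDM4B* probe set was between 17.4 and 24.7 on the 4 arrays and did not pass the filter.

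*KDM4C* had a single probe set, which did not pass. Its intensity was 20.0 in hypoxia against 17.3 in normoxia on the arrays labelled HIF2α-KD, and 20.2 against 8.31 on the control arrays. All 4 values were below the 95th percentile of the reporters on their own array, and no direction is given for this gene.

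The *KDM5* genes encode demethylases of H3K4, the methyl mark of active promoters. At CfaAffx.16393.1.S1_at *KDM5B* had 756 in hypoxia against 513 in normoxia on the arrays labelled HIF2α-KD, and 962 against 586 on the control arrays. All hypoxic values were above all normoxic values, and the log2 differences were 0.55 in HIF2α-KD and 0.70 in control cells. The oxygen term was 0.62 ± 0.15 (SE; limma, unadjusted p = 0.00373, adjusted p = 0.066), short of the threshold of 0.05, with adjusted p from 0.0523 to 0.174 under the 10 alternatives. The other probe set of *KDM5B*, Cfa.16903.1.S1_s_at, had 98.0 against 99.8 on the arrays labelled HIF2α-KD and 106 against 89.7 on the control arrays, an oxygen term of 0.09 ± 0.15 (SE; limma, adjusted p = 0.759). The larger hypoxia difference of *KDM5B* was therefore seen at 1 of its probe sets.

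*KDM5A* was above 0 in hypoxia at each of its 3 probe sets in both cell lines. At its brightest, Cfa.15175.1.A1_at, it had 474 in hypoxia against 377 in normoxia on the arrays labelled HIF2α-KD, and 538 against 433 on the control arrays. At CfaAffx.24187.1.S1_at the values were 129 against 94.96 and 166 against 120.4 in the same order. The log2 differences of these probe sets were close in the cell lines, 0.32 and 0.38 in HIF2α-KD against 0.30 and 0.42 in control cells. CfaAffx.24177.1.S1_at had 222 in hypoxia against 120.6 in normoxia on the arrays labelled HIF2α-KD, and 342 against 245 on the control arrays, or 0.80 and 0.45 on the log2 scale. The oxygen terms were 0.31 ± 0.15, 0.40 ± 0.14 and 0.63 ± 0.16 (SE; limma, adjusted p = 0.272, 0.156 and 0.0759), none called.

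*KDM6B* encodes a demethylase of H3K27, the mark set by the Polycomb complex, and had 1 probe set. It had 87.55 in hypoxia against 92.6 in normoxia on the arrays labelled HIF2α-KD, and 213 against 124 on the control arrays. Only the control pair differed upward, by 0.71 on the log2 scale against -0.07 in HIF2α-KD, and the oxygen term was 0.32 ± 0.20 (SE; limma, adjusted p = 0.401).

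*JMJD6* encodes a JmjC enzyme known as a lysyl hydroxylase of splicing factors, for which demethylation of histone arginine was also described. At its brighter probe set it had 593 in hypoxia against 517 in normoxia on the arrays labelled HIF2α-KD, and 585 against 393 on the control arrays. At the other it had 110.3 against 100.6 on the arrays labelled HIF2α-KD and 124 against 84.4 on the control arrays. The normoxic control array was the lowest of the 4 at both probe sets. The oxygen terms were 0.37 ± 0.16 and 0.30 ± 0.16 (SE; limma, adjusted p = 0.234 and 0.317).

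*KDM2A* and *KDM2B*, demethylases of H3K36 that bind CpG islands through a zinc finger, had 2 and 3 probe sets. Their intensities ran from 3.22 to 9.02 for *KDM2A* and from 5.69 to 22.7 for *KDM2B* over all arrays. All of these values were below the 95th percentile of the reporters on the same array. Neither gene was detectable above background with these probes, which does not show that the mRNA is absent.

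Taking the 13 probe sets as a list, 13 had an oxygen term above 0, where 53.7% of all 23493 did. The genes were chosen with earlier results of these data known, so counts over this list, here and below, describe it and test nothing. Their median oxygen term was 0.32, against 0.03 for all probe sets. At an unadjusted p under 0.05, 5 were higher and 0 lower, where 13.7% and 8.27% of all probe sets were. Of the 13, 11 were above 0 in HIF2α-KD cells, against 53.4% of all probe sets, 12 in control cells, against 53.8%, and 10 in both, against 37%. Probe sets of 1 gene are not independent of each other, and the 13 stand for only 7 genes. The list median was 0.30 in HIF2α-KD and 0.45 in control cells, against 0.03 for all probe sets in each.

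**Figure D2:**
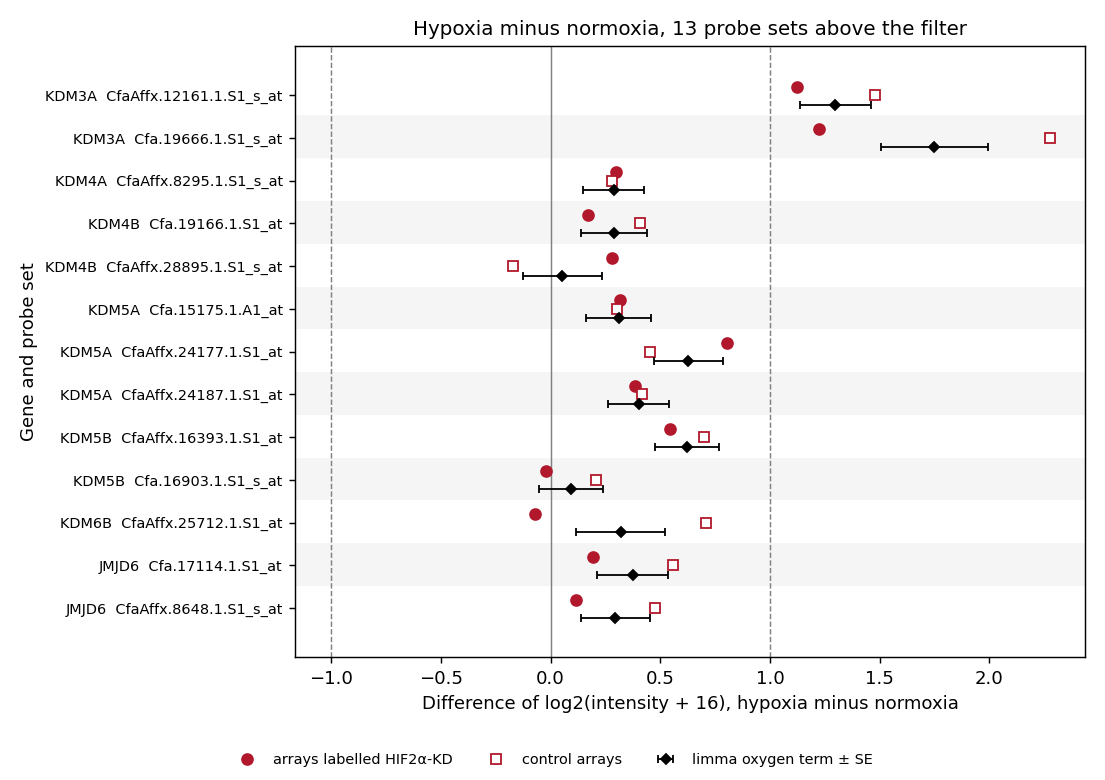
Difference of log2(intensity + 16), hypoxia minus normoxia, for the 13 probe sets above the filter. Filled circles are the arrays labelled HIF2α-KD, open squares the control arrays and diamonds the limma oxygen term with its SE, with dashed lines at a 2-fold difference. Only the probe sets of *KDM3A* lie beyond the upper dashed line, at 1.12 and 1.23 in HIF2α-KD and 1.48 and 2.27 in control cells.

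For the knockdown, limma called 0 of the 13 probe sets in either direction, as it did 0 of all 23493 (0% in each direction; smallest adjusted p = 0.0616). At an unadjusted p under 0.05 there were 0 Jumonji probe sets higher and 2 lower, against 2.44% and 7.32% of all probe sets. Other settings called up to 31 probe sets for the knockdown, with median centring, and 0 of the 13 under any of them. The 2 probe sets were 1 of *KDM5A* and that of *KDM6B*.

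*KDM6B* was lower under the knockdown label at both oxygen levels. Its intensity was 87.55 on the HIF2α-KD array against 213 on the control array in hypoxia, and 92.6 against 124 in normoxia. The log2 differences were -1.15 and -0.37, and *KDM6B* was the only Jumonji probe set at least 2-fold lower in hypoxia, where 0.851% of all probe sets were. None of the 13 was 2-fold higher in hypoxia (0.157% of all probe sets), and none was 2-fold higher (0.626%) or lower (0.566%) in normoxia. With 64 added in place of 16 it was -0.87 and no longer 2-fold. The line term was -0.76 ± 0.20 (SE; limma, unadjusted p = 0.00684, adjusted p = 0.277), among the lowest 0.936% of all line terms.

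*KDM5A* at CfaAffx.24177.1.S1_at was 222 on the HIF2α-KD array against 342 on the control array in hypoxia, and 120.6 against 245 in normoxia. Both knockdown values lay below both control values, and the log2 differences were -0.59 in hypoxia and -0.94 in normoxia. The line term was -0.76 ± 0.16 (SE; limma, unadjusted p = 0.00179, adjusted p = 0.188). The other *KDM5A* probe sets were also lower at both oxygen levels, but by less. Their log2 differences were -0.18 and -0.33 in hypoxia and -0.19 and -0.30 in normoxia, with line terms of -0.19 and -0.32 (limma, adjusted p = 0.764 and 0.538). The 3 probe sets thus gave the same direction and different sizes.

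No other Jumonji probe set had a line term with an unadjusted p under 0.05. *KDM4A* was lower at both oxygen levels, by -0.20 in hypoxia and -0.22 in normoxia on the log2 scale, and *KDM5B* at its brighter probe set by -0.34 and -0.19. *JMJD6* at its brighter probe set was 593 on the HIF2α-KD array against 585 on the control array in hypoxia, and 517 against 393 in normoxia. The log2 differences of 0.02 and 0.38 had a line term of 0.20 ± 0.16 (SE; limma, adjusted p = 0.771), the highest signed value of the 13. In hypoxia 11 of the 13 differences were below 0 (56% of all probe sets) and in normoxia 8 (54.9%). Of the 13 line terms 9 were below 0, where 56.6% of all probe sets were, and the median was -0.19, against -0.03 for all. Below 0 at both oxygen levels were 7 of the 13, against 33.3% of all probe sets. These counts include values near 0 whose sign turned with quantile and cyclic loess normalization, namely *KDM3A* at CfaAffx.12161.1.S1_s_at in normoxia and the line terms of *KDM3A* at Cfa.19666.1.S1_s_at and *KDM4B* at Cfa.19166.1.S1_at.

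**Figure D3:**
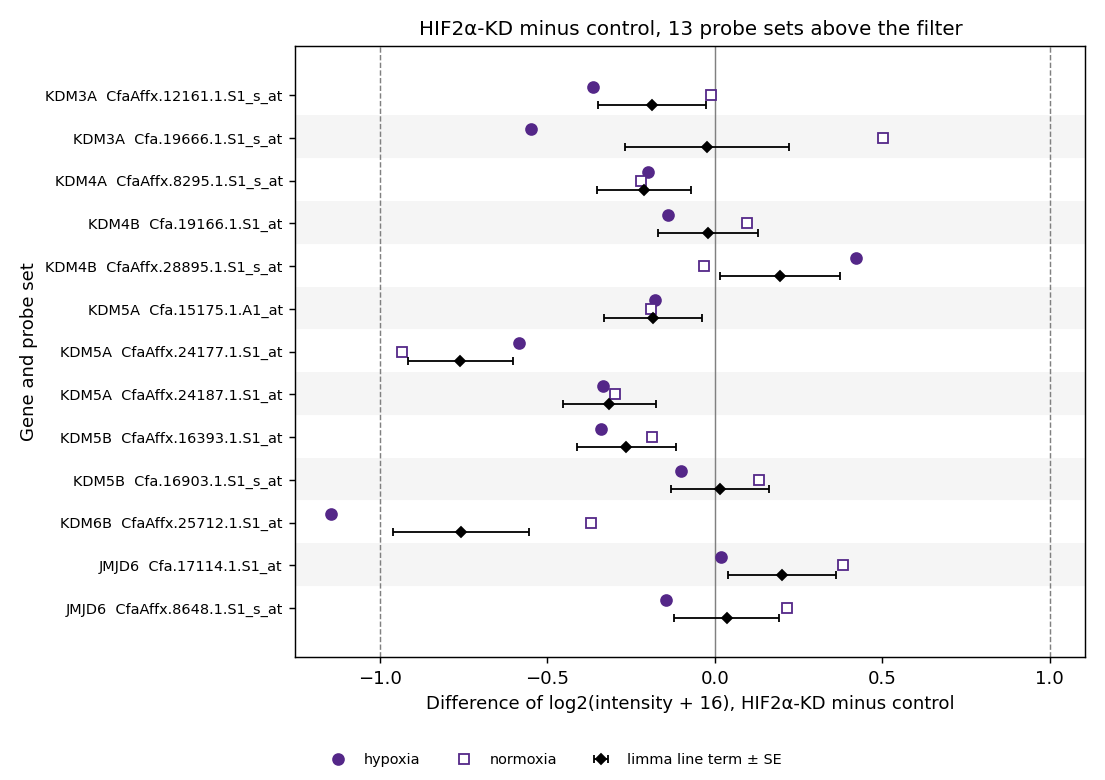
Difference of log2(intensity + 16), HIF2α-KD minus control, for the 13 probe sets above the filter. Filled circles are hypoxia, open squares normoxia and diamonds the limma line term with its SE, with dashed lines at a 2-fold difference. Only *KDM6B* in hypoxia lies beyond the lower dashed line, at -1.15, and *KDM5A* at CfaAffx.24177.1.S1_at lies near it in normoxia, at -0.94.

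The remaining genes of the JmjC superfamily and other enzymes of histone methylation were read from lists of genes, with the brightest probe set for each of the 9766 genes above the filter. On this gene scale limma called 240 genes higher and 41 lower in hypoxia, and *KDM3A* again alone among the 10 (adjusted p = 0.0126). Of 16 other JmjC genes on the array 13 were above the filter, and limma called 0 of them for oxygen, with a median oxygen term of 0.10 against 0.02 for all genes. Their largest oxygen terms were those of *JMJD8* (0.54), *JMJD1C* (0.44), *KDM6A* (0.41), an H3K27 demethylase, and *HIF1AN* (0.39), the asparagine hydroxylase of HIFα, with adjusted p from 0.142 to 0.238. *JMJD8* passed the filter only through the hypoxic control array, at 30.2, and its normoxic values of 17.7 on the array labelled HIF2α-KD and 10.3 on the control array were below the 95th percentile of the reporters, so its place among these is uncertain. *KDM3B*, the closest relative of *KDM3A*, was between 1.00 and 19.8 at its 3 probe sets and did not pass.

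*JMJD1C*, another member of the *KDM3* group, had its larger differences with the knockdown label at its brightest probe set, and limma did not call them. At this probe set, CfaAffx.20299.1.S1_s_at, it had 147 on the HIF2α-KD array against 486 on the control array in hypoxia, and 108 against 343 in normoxia, or -1.62 and -1.53 on the log2 scale. It was the only one of the 13 other JmjC genes at least 2-fold lower in either pair. Of all 9766 genes, 86 were 2-fold lower in hypoxia and 53 in normoxia. The line term of *JMJD1C* was -1.58 (limma, adjusted p = 0.0616 over probe sets and 0.0574 over genes). None of the 23493 probe sets had a smaller adjusted p for the line term. Its other probe sets differed by less, -0.56 and -0.85 in hypoxia and -0.41 and -0.03 in normoxia. At the last of these, CfaAffx.20302.1.S1_at, the hypoxia difference was 0.23 in HIF2α-KD and 1.04 in control cells. Its oxygen term of 0.64 was larger in size than its line term of -0.44 (limma, adjusted p = 0.140 and 0.578).

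Of 4 genes of the amine oxidase demethylases and their CoREST partners, limma called 0 for oxygen. *KDM1A*, which acts on H3K4 without a JmjC domain, had an oxygen term of 0.27, *KDM1B* of -0.30 and *RCOR1* of 0.43. Of 18 histone lysine methyltransferase genes, 0 were called and 13 were above 0, with a median of 0.13. Of all 9766 genes, 240 were called higher and 41 lower, and 5200 were above 0, with a median of 0.02. The largest terms were those of the H3K4 methyltransferase *KMT2A* (0.65), the H3K9 family member *SETDB2* (0.64, both with adjusted p = 0.0748), *SMYD2* (0.50) and *SETD7* (0.45). For the knockdown, limma called 0 genes in each of these lists, as it did 0 of all 9766 genes.

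Among 16 other 2-oxoglutarate dioxygenase genes, limma called 4 higher and 1 lower in hypoxia. The HIF prolyl hydroxylase gene *EGLN3* had 247 in hypoxia against 19.1 in normoxia on the arrays labelled HIF2α-KD, and 380 against 25.5 on the control arrays, with an oxygen term of 3.08 (adjusted p = 0.000710). Both normoxic values were below the 95th percentile of the reporters on their array, so the size is uncertain. The collagen prolyl hydroxylase *P4HA1* (2.11), the HIF prolyl hydroxylase *EGLN1* (1.87) and the collagen lysyl hydroxylase *PLOD1* (0.95) completed the higher ones, and *ALKBH3*, a demethylase of nucleic acids (-0.76), was the lower one. These calls are at the brightest probe set of each gene. *P4HA2* was not called there (0.50, adjusted p = 0.0609). Others of its probe sets were called higher, at 1.201, 1.195 and 0.686 (limma, adjusted p = 0.0209, 0.0180 and 0.0346 over probe sets), while CfaAffx.2160.1.S1_s_at was not (0.553, adjusted p = 0.0619). The other *ALKBH3* probe sets were also lower but not called, at -0.520 and -0.601 (limma, adjusted p = 0.0917 and 0.0775). Of 11 hypoxia check genes on the array 9 were above the filter, and *CA9* and *BNIP3* did not pass. Of the 9, 8 were called higher, among them *ADM* (4.07), *ANKRD37* (3.19), *NDRG1* (3.08) and *PDK1* (2.90), and *LOX* was not called (0.73, adjusted p = 0.0636). Both normoxic values of *NDRG1*, 18.4 on the array labelled HIF2α-KD and 14.4 on the control array, were below the 95th percentile of the reporters, so the size of its term is uncertain.

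None of the 6 genes in the list of HIF subunits and *VHL* was called for oxygen. *HIF1A* had an oxygen term of -0.50 at its brightest probe set (adjusted p = 0.0622). At its other probe sets it was smaller in size, -0.28 and -0.01 (limma, adjusted p = 0.319 and 0.969 over probe sets). *ARNT*, the shared partner subunit, had 0.07 and *EPAS1* 0.37, the last with a hypoxia difference of -0.40 in HIF2α-KD and 1.13 in control cells.

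**Figure D4:**
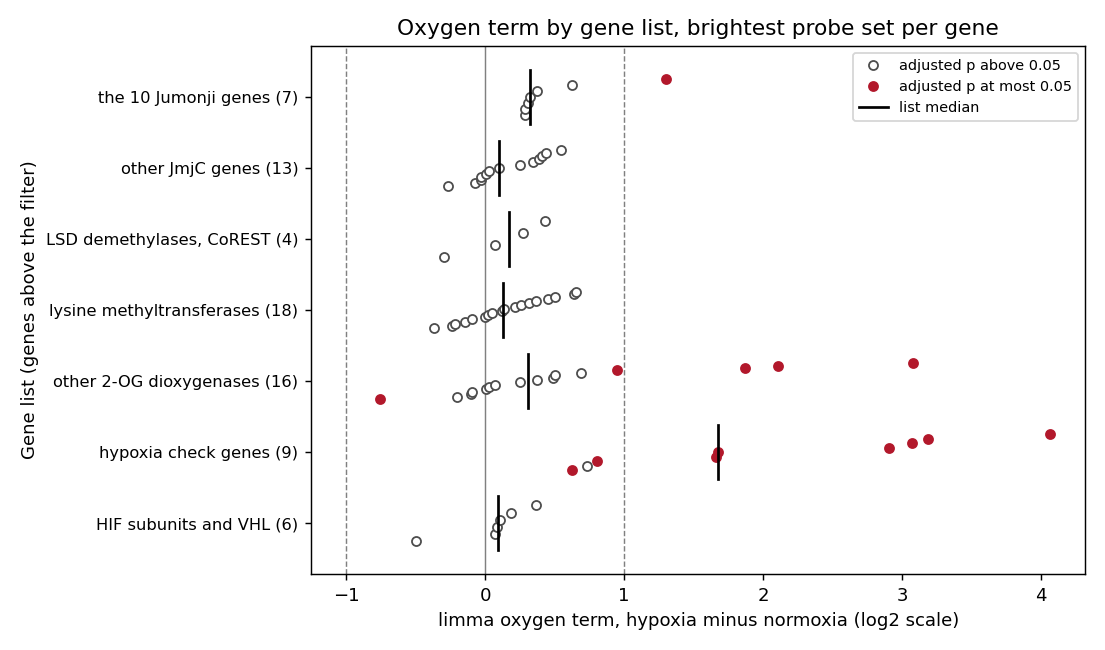
Limma oxygen term of each gene above the filter, by gene list, each row labelled with its gene number. Every point is a gene at its brightest probe set, filled where the adjusted p over 9766 genes was at most 0.05, and bars are list medians. *KDM3A*, at 1.30, is the only filled point among the 10 Jumonji genes, and none is filled among the other JmjC genes or the methyltransferases.

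The genes whose pattern over the 4 arrays was nearest to that of *KDM3A* at Cfa.19666.1.S1_s_at, the Jumonji probe set with the widest range (2.27 on the log2 scale), were sought among 9765 other genes. Likeness was the root mean square distance between log2 values after each gene's own mean was removed. The nearest were *ZSWIM6* (0.08), *F11R* (0.10), which encodes the junction protein JAM-A, *LPGAT1* (0.12), *CDH1* (0.13), which encodes E-cadherin, and *TENM4* (0.13). *CDH1* had 81.4 in hypoxia against 18.9 in normoxia on the arrays labelled HIF2α-KD, and 119 against 15.45 on the control arrays. Both normoxic values of *CDH1*, and that of *ZSWIM6* on the control array (20.3), were below the 95th percentile of the reporters. Their distances and the sizes of their hypoxia differences are therefore uncertain. The study measured *CDH1* mRNA by RT-qPCR in normoxic control cells, so these values do not show that it is absent in normoxia.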

How the data were processed

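RNA was labelled by the authors with biotin (Affymetrix 3' IVT kit) and hybridised to canine arrays. The deposited table holds linear intensity values per probe set, made by the authors, and how they were summarized and scaled is not given in the sources used here. Of 42924 probe sets, 29254 carry 1 gene symbol in the platform annotation, 439 several and 13167 none. The remaining 64 are reporter controls, 1 of them bright and left out of the background. Array medians were 28.2 to 29.1, and correlations between arrays were 0.970 to 0.988 over the probe sets kept. The 4 arrays limit the precision of every difference.

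Values were taken as log2(intensity + 16), filtered at the table's median, and fitted with limma 3.58.1 (trended prior; Benjamini-Hochberg adjustment over all probe sets kept; threshold 0.05) in R 4.3.3, tested first on simulated data. Pairs of arrays were counted at 2-fold. Python 3.11.15 with numpy 2.4.6, pandas 2.3.3 and matplotlib 3.10.9 was used for the rest. Every probe set of the 10 genes is described. From each further list up to 4 genes with the largest oxygen term are named, besides *EPAS1*, the 5 nearest patterns and some chosen after their values were seen. These are *KDM3B*, *ALKBH3*, *P4HA2*, *LOX*, *CA9*, *BNIP3* and *ARNT*. The genes and lists were chosen with earlier results of these data known. No paired replicates exist, and no genome or sequence was used, so no coordinates are given.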

Additional observations from a re-analysis of the deposited data

Results flagged for a closer look

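Several probe sets moved one way in one pair of arrays and the opposite way in the other. Whether the pairs differ was not tested, since no residual degree of freedom is left for it.

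The largest was that of *KDM3A* at Cfa.19666.1.S1_s_at, whose knockdown difference was -0.55 in hypoxia and 0.50 in normoxia, a gap of -1.05 on the log2 scale. Its other probe set had -0.37 in hypoxia and -0.01 in normoxia, the second of which turned positive with quantile (0.058) and cyclic loess (0.045) normalization. *KDM6B* had a hypoxia difference of -0.07 in HIF2α-KD and 0.71 in control cells, a gap of -0.78.

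The gaps of the others were smaller. *KDM4B* at CfaAffx.28895.1.S1_s_at had a hypoxia difference of 0.28 in HIF2α-KD and -0.17 in control cells, and a knockdown difference of 0.42 in hypoxia and -0.03 in normoxia, a gap of 0.45 in both views. At Cfa.19166.1.S1_at its knockdown difference was -0.14 in hypoxia and 0.10 in normoxia, a gap of -0.24. *KDM5B* at Cfa.16903.1.S1_s_at had a hypoxia difference of -0.02 in HIF2α-KD and 0.21 in control cells, and a knockdown difference of -0.10 in hypoxia and 0.13 in normoxia, a gap of -0.23 in both views. *JMJD6* at CfaAffx.8648.1.S1_s_at had a knockdown difference of -0.14 in hypoxia and 0.22 in normoxia, a gap of -0.36.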

How the results depend on the processing

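The count of Jumonji probe sets called for oxygen, 2 in the analysis described, became 0 without the filter and 1 with the brightest probe set per gene, which leaves 1 for *KDM3A*. It stayed at 2 under the other 8 alternatives. The oxygen term of *KDM3A* was 1.18 to 1.34 at CfaAffx.12161.1.S1_s_at and 1.49 to 1.86 at Cfa.19666.1.S1_s_at. At least 2-fold different in hypoxia were 1 in place of 2 in each cell line with the brightest probe set per gene, and 3 in HIF2α-KD and 4 in control cells at 1.5-fold. For the knockdown the count in hypoxia was 1, but 0 with 64 added and 2 at 1.5-fold, and in normoxia 0, but 1 with 1 added and 1 at 1.5-fold. Turned in sign were the line terms of *KDM3A* at Cfa.19666.1.S1_s_at, to 0.054 with quantile and 0.034 with cyclic loess normalization, and of *KDM4B* at Cfa.19166.1.S1_at, to 0.051 and 0.032 in place of -0.02. The knockdown difference of *KDM3A* at CfaAffx.12161.1.S1_s_at in normoxia, -0.01, turned to 0.058 and 0.045. The cause was not tested.

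Over all probe sets, 927 were called for oxygen, but 71 without the filter, 386 with the filter at 174.7, 405 without the trended prior and 281 with 1 probe set per gene. For the knockdown 0 were called, but 3 with 64 added, 1 with quantile normalization, 31 with median centring and 9 with robust moderation. At 2-fold, 495 and 973 probe sets differed with oxygen in HIF2α-KD and control cells and 237 and 280 with the knockdown in hypoxia and normoxia. These became 1001, 1687, 570 and 629 with 1 added, 236, 467, 78 and 141 with 64 added, 322, 624, 133 and 186 with the higher filter, 176, 350, 96 and 113 with 1 probe set per gene, and 2261, 3784, 1589 and 1522 at 1.5-fold. Leaving out an array in turn was not possible, since 3 arrays leave no residual degree of freedom. No paired analysis was possible because each condition has 1 array and the labels give no replicate numbers.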
